A study of Mus musculus with 8 samples.

Results

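Ifitm1, Ifitm2 and Ifitm3 encode interferon-induced transmembrane proteins. They are 3 of the 37411 genes in a table of raw RNA-seq read counts, taken by symbol, and all 3 passed the filter on low counts. The genes were chosen by their CPM (read counts scaled to library size) across these 8 libraries by tissue, hairpin and host, so those levels and their differences are given as a description, with no test. Libraries were made from CD4+ effector T cells with a congenic marker, about 10000 per library, that were sorted 6 weeks after transfer into C57BL/6 Rag1-/- hosts, which lack mature lymphocytes. The cells carried the LMPd retrovirus with a short hairpin against Mdr1 (shMdr1), a multidrug efflux pump whose gene is Abcb1a, or a control hairpin against CD8 (shCD8). They came from small intestine or from spleen, and the hosts either lacked Asbt, the ileal bile acid transporter encoded by Slc10a2 (Asbt-/-), or had it (Asbt+/+). Each of the 8 combinations of tissue, hairpin and host had 1 library, giving 4 libraries per tissue, hairpin or host and no replicate of a combination. The hairpin was read from the sample titles, since the retrovirus label is the same, shMdr1, in every sample.

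IFITM proteins are small membrane proteins of the CD225 family that hinder the fusion of enveloped viruses with cell membranes. IFITM3 acts mainly in late endosomes and lysosomes, while IFITM1 lies largely at the cell surface. Their genes are classic targets of type I and type II interferon, whose signal reaches DNA through STAT and IRF factors, and mouse T cells of the lung are known to keep Ifitm3 on as resident memory cells. IFITM genes are also expressed in many cells other than T cells, among them myeloid and stromal cells.

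The promoters of the 3 genes are shown because interferon control acts there and because the genes differed in how they varied. The RefSeq table of promoters (build GRCm38.p6) held 1 window for each gene, 250 bases before to 50 after a start site, on chromosome 7. The counts were made on mm9, for which no coordinates were converted. Capitals mark matches to GAAANNGAAA or its reverse TTTCNNTTTC, the core of the interferon-stimulated response element.
Ifitm1 (chr7:140967826-140968125, plus strand): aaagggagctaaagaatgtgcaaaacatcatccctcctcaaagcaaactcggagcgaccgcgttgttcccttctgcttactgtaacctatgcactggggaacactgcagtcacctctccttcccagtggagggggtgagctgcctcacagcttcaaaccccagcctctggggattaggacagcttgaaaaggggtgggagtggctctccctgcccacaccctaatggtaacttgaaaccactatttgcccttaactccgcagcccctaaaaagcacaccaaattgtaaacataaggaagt
Ifitm2 (chr7:140955912-140956211, minus strand): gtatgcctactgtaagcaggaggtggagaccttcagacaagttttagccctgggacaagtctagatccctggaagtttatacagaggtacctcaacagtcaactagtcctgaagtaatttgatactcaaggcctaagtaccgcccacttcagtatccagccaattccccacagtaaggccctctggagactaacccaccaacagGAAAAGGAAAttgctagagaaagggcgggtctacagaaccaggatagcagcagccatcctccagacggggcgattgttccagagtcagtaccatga
Ifitm3 (chr7:141010695-141010994, minus strand): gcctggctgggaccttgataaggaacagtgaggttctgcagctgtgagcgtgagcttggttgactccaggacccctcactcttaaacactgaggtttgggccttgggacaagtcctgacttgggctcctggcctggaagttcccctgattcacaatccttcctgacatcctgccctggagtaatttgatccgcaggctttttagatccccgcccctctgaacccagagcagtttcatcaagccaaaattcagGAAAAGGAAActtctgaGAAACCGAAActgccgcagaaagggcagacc

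The Ifitm2 window held 1 match, GAAAAGGAAA, at -46 to -37 from the start site, where the start base is 1 and the base before it -1. The Ifitm3 window held the same 10 letters at 3 to 12 and a further match, GAAACCGAAA, at 20 to 29. The Ifitm1 window held none, and Ifitm1 has 3 protein-coding transcripts in the GENCODE vM21 basic set, while the promoter table holds 1 window for it. Over all 32851 promoter windows of this length in the table, 3.44% held a match on either strand. The palindrome TTCNNNGAA, bound by STAT factors, occurred once among these 3 windows, as TTCTGAGAA at 14 to 22 in Ifitm3, overlapping the match at 20 to 29. It occurred in 8.3% of all windows.

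The libraries held 1685225 to 2767105 counts, and 1 count was worth 0.392 to 0.639 CPM after scaling with TMM factors. Mitochondrial transcripts made up from 6.63% of the counts, in shMdr1 spleen Asbt+/+, to 26.8%, in shMdr1 spleen Asbt-/-. All 13 CD4 T cell markers were detected in every library, with a summed level of 6463 to 10486 CPM. Abcb1a, the hairpin's target, had a lower CPM with shMdr1 than with shCD8 in 3 of 4 hairpin pairs. Of these, the spleen Asbt-/- pair had overlapping counting intervals, at 22.1 CPM with shMdr1 and 29.5 CPM with shCD8. In the small intestine Asbt+/+ pair it went against the labels, at 14.7 CPM (23 counts) in the library labelled shMdr1 and 8.24 CPM (21 counts) in the library labelled shCD8, with overlapping counting intervals. Detected genes numbered 8456 in shCD8 small intestine Asbt+/+ and 11345 to 13184 in the other 7 libraries. Slc10a2 totalled 4 counts, all in Asbt-/- hosts, so it does not check the host labels. The labels do not say that libraries came from separate animals.

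Ifitm1 was set apart by 1 library. In spleen of Asbt+/+ hosts it had 3322 counts (1376 CPM, 95% counting interval 1330 to 1424) with shMdr1, against 99 counts (42.4 CPM, interval 34.4 to 51.6) with shCD8. In spleen of Asbt-/- hosts it had 87.6 CPM with shMdr1 and 16.2 CPM with shCD8. Both spleen pairs were thus higher with shMdr1. In small intestine the order was the opposite, with 53.6 CPM for shMdr1 and 81.4 CPM for shCD8 in Asbt-/- hosts. In Asbt+/+ hosts it had 43.4 CPM in shMdr1 cells and 52.6 CPM in shCD8 cells of the small intestine, with overlapping counting intervals. The shMdr1 spleen Asbt+/+ library lay 15.7-fold above the next highest library, shMdr1 spleen Asbt-/-, and 26.2-fold above the median of the other 7. Of the 10000 tested genes, 3 (0.03%) were at least 4-fold above every other library in this one on the log2 CPM scale, and Ifitm1 had the largest gap of the 3. The same share of genes was 0.29% for shMdr1 small intestine Asbt+/+, 0.09% for shMdr1 spleen Asbt-/-, 0.73% for shCD8 small intestine Asbt+/+, 0.03% for shMdr1 small intestine Asbt-/-, 0.01% for shCD8 small intestine Asbt-/- and 0% for both shCD8 spleen libraries.

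Ifitm2 followed the hairpin in 3 of the 4 pairs. In Asbt-/- hosts its small intestine levels were 300.5 CPM for shMdr1 and 52.0 CPM for shCD8. In spleen of Asbt-/- hosts the values were 299 CPM with shMdr1 and 48.6 CPM with shCD8, and in spleen of Asbt+/+ hosts 413 CPM with shMdr1 and 90.7 CPM with shCD8. The pair from small intestine of Asbt+/+ hosts differed, with 238 CPM with shMdr1 and 305 CPM with shCD8. The 4 shMdr1 libraries therefore spanned 238 to 413 CPM, and 3 of the 4 shCD8 libraries lay at 48.6 to 90.7 CPM. The exception was the shCD8 library with the fewest genes detected. In its pair Abcb1a was higher in the library labelled shMdr1, with overlapping counting intervals. The part of either in this value was not tested.

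Ifitm3 was the most even of the 3 genes. In Asbt-/- hosts its small intestine levels were 256 CPM for shMdr1 and 70.7 CPM for shCD8, and in spleen of Asbt+/+ hosts 244 CPM with shMdr1 and 80.9 CPM with shCD8. In spleen of Asbt-/- hosts the levels were closer, at 124 CPM with shMdr1 and 79.1 CPM with shCD8. In Asbt+/+ hosts the small intestine levels of Ifitm3 were 103 CPM with shMdr1 and 327 CPM with shCD8, its highest level in any library. As with Ifitm2, the shCD8 libraries other than that one were the lowest 3 of the 8. Across the 8 libraries the SD of log2 CPM was 1.85 for Ifitm1, 1.24 for Ifitm2 and 0.87 for Ifitm3, beside a median of 0.97 over the tested genes.

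**Figure D1:**
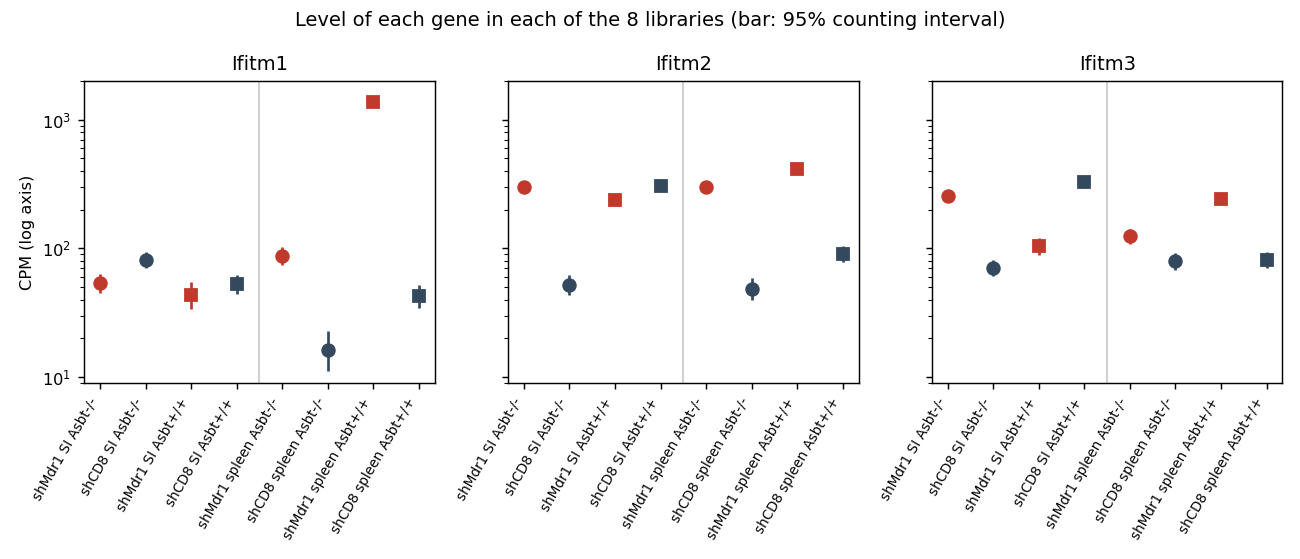
CPM of Ifitm1, Ifitm2 and Ifitm3 (log axis) in each library, with 95% counting intervals as bars; red stands for shMdr1, dark blue for shCD8, circles for Asbt-/-, squares for Asbt+/+ and SI for small intestine. Ifitm1 reached 1376 CPM in shMdr1 spleen Asbt+/+ and 16.2 to 87.6 CPM elsewhere, while Ifitm2 and Ifitm3 had low levels in the same 3 shCD8 libraries.

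Ordered by level, many neighbouring libraries had overlapping counting intervals, which does not show that their levels were the same. For Ifitm1, 4 of the 7 neighbouring pairs in that order had overlapping 95% counting intervals, and the 4 levels from 42.4 to 53.6 CPM formed 1 such run. For Ifitm2, 3 of 7 overlapped: the levels of 299, 300.5 and 305 CPM formed a run, as did 48.6 and 52.0 CPM. For Ifitm3, 5 of 7 overlapped, and the 5 lowest levels, from 70.7 to 124 CPM, were each linked to the next. These intervals cover counting error only. They may be too narrow even for that, since the libraries hold amplified cDNA without molecular identifiers.

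The share of each gene in the family's counts also shifted. Per length, as CPM per kilobase of the coding transcripts' exons in GENCODE vM21, Ifitm1 was the highest of the 3 genes in 1 library and the lowest in the other 7. In shMdr1 spleen Asbt+/+ it stood at 1258, with Ifitm2 at 629.9 and Ifitm3 at 359.8 CPM per kilobase. In the other 7 libraries Ifitm1 stood at 14.8 to 80.1 CPM per kilobase. Ifitm2 was above Ifitm3 in 5 libraries, and Ifitm3 above Ifitm2 in 3, all of them shCD8 libraries. Of the summed counts of the 3 genes, Ifitm1 made up 67.7% in shMdr1 spleen Asbt+/+ (95% Clopper-Pearson interval 66.4 to 69.0%), 39.9% in shCD8 small intestine Asbt-/- (35.6 to 44.3%) and 7.69 to 19.8% in the remaining 6.

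**Figure D2:**
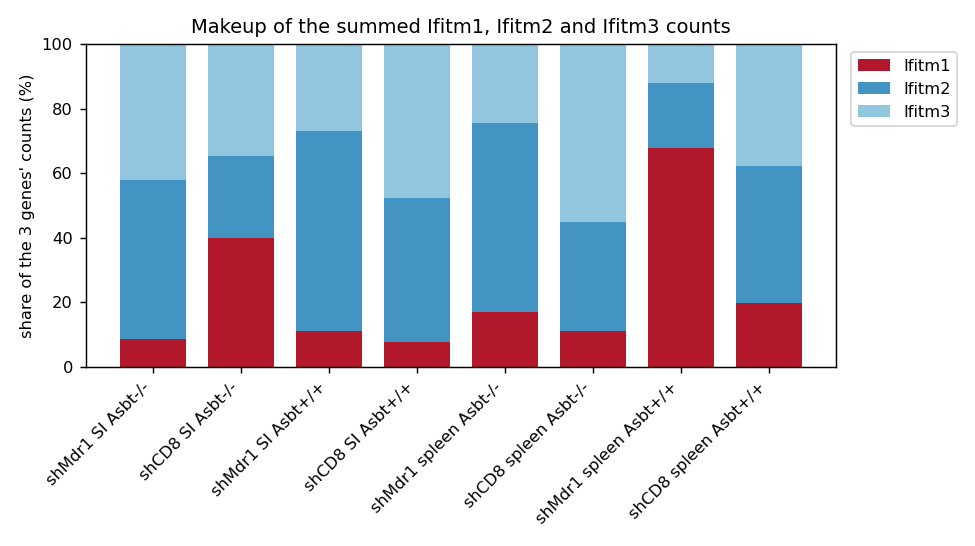
Share of the summed Ifitm1, Ifitm2 and Ifitm3 counts taken by each gene (%), as stacked bars for the 8 libraries, where SI stands for small intestine. Ifitm1 took 67.7% in shMdr1 spleen Asbt+/+ and 39.9% in shCD8 small intestine Asbt-/-.

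Parts of the members' transcripts also occur in other annotated genes, for Ifitm1 and Ifitm2 more than in other IFITM genes, which bears on counting. Of the 50-base windows in the longest coding transcript of each gene, 294 of 606 for Ifitm2, 63 of 629 for Ifitm3 and 53 of 833 for Ifitm1 also occur in a transcript of another annotated gene. Of the Ifitm2 windows, 219 occur in Gm45717. Windows shared with another IFITM gene made up 3.30% for Ifitm2, 5.56% for Ifitm3 and 1.80% for Ifitm1. The labels and processing notes do not state how reads with several matches were counted, which leaves the Ifitm2 level in particular uncertain. Of the 7 such Gm genes, Gm7676 is in the table, with 13 counts in all, 8 of them in shMdr1 spleen Asbt+/+, against 3322 for Ifitm1 there.

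Tissue was compared to see how the transferred cells of the gut differ from those of a lymphoid organ. Ifitm1 averaged 57.8 ± 16.4 CPM in small intestine and 381 ± 664 CPM in spleen (SD, n = 4 each). Ifitm2 averaged 224 ± 118 CPM in small intestine and 213 ± 172 CPM in spleen, and Ifitm3 averaged 189 ± 122 CPM in small intestine and 132 ± 77.5 CPM in spleen. The libraries of both tissues overlapped for each gene; of all tested genes, 8.07% had no overlap. The fitted log2 fold changes, small intestine over spleen, were -0.81 for Ifitm1, 0.42 for Ifitm2 and 0.65 for Ifitm3, each smaller than the SD of its 4 pair ratios (3.05, 1.06 and 1.41). The ratio of Ifitm1 was above 0 in 2 pairs, both shCD8, and below 0 in the 2 shMdr1 pairs. Without shMdr1 spleen Asbt+/+ the Ifitm1 value turned to 0.33, and without shMdr1 small intestine Asbt+/+ to 0.56. Without shCD8 small intestine Asbt+/+ the values of Ifitm2 and Ifitm3 turned to -0.30 and -0.12.

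Hairpins were compared to learn which transcripts differ when Mdr1 is targeted. Ifitm2 averaged 313 ± 72.7 CPM with shMdr1 and 124 ± 122 CPM with shCD8. Its fitted log2 fold change was 1.72, and the SD of its 4 pair ratios was 1.40. The 4 pair ratios on the log2 scale were 2.51 in small intestine of Asbt-/- hosts, -0.35 in small intestine of Asbt+/+ hosts, where Abcb1a went against the labels, 2.60 in spleen of Asbt-/- hosts and 2.17 in spleen of Asbt+/+ hosts. Ifitm3 averaged 182 ± 79.3 CPM with shMdr1 and 139 ± 125 CPM with shCD8, with a log2 fold change of 0.65 and 3 of 4 pair ratios above 0. Ifitm1 averaged 390.2 ± 657 CPM with shMdr1 and 48.1 ± 27.0 CPM with shCD8, with a log2 fold change of 1.85 that became 0.31 without shMdr1 spleen Asbt+/+. The 4 libraries of each hairpin overlapped for all 3 genes, and 2.79% of tested genes had no overlap.

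Hosts were compared to learn which transcripts of the transferred cells differ when ileal bile acid uptake is lost. Ifitm1 averaged 59.7 ± 32.5 CPM in Asbt-/- hosts and 379 ± 665 CPM in Asbt+/+ hosts, Ifitm2 175 ± 144 CPM in Asbt-/- hosts and 262 ± 135 CPM in Asbt+/+ hosts. Ifitm3 averaged 133 ± 85.8 CPM in Asbt-/- hosts and 189 ± 117 CPM in Asbt+/+ hosts. The fitted log2 fold changes were -1.42, -1.01 and -0.66 for Ifitm1, Ifitm2 and Ifitm3, each within the SD of its pair ratios (2.09, 1.21 and 1.48). In spleen every ratio of the 3 genes lay below 0, from -3.96 for Ifitm1 in shMdr1 cells to -0.03 for Ifitm3 in shCD8 cells. In small intestine shMdr1 cells all 3 lay above 0, at 0.30, 0.33 and 1.30. In small intestine shCD8 cells Ifitm1 stood at 0.62, while Ifitm2 and Ifitm3 stood at -2.53 and -2.19. Without shMdr1 spleen Asbt+/+ the Ifitm1 value turned to 0.32, and without shCD8 small intestine Asbt+/+ the Ifitm3 value turned to 0.09. The libraries of both hosts overlapped for each gene, and 2.71% of tested genes had no overlap.

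**Figure D3:**
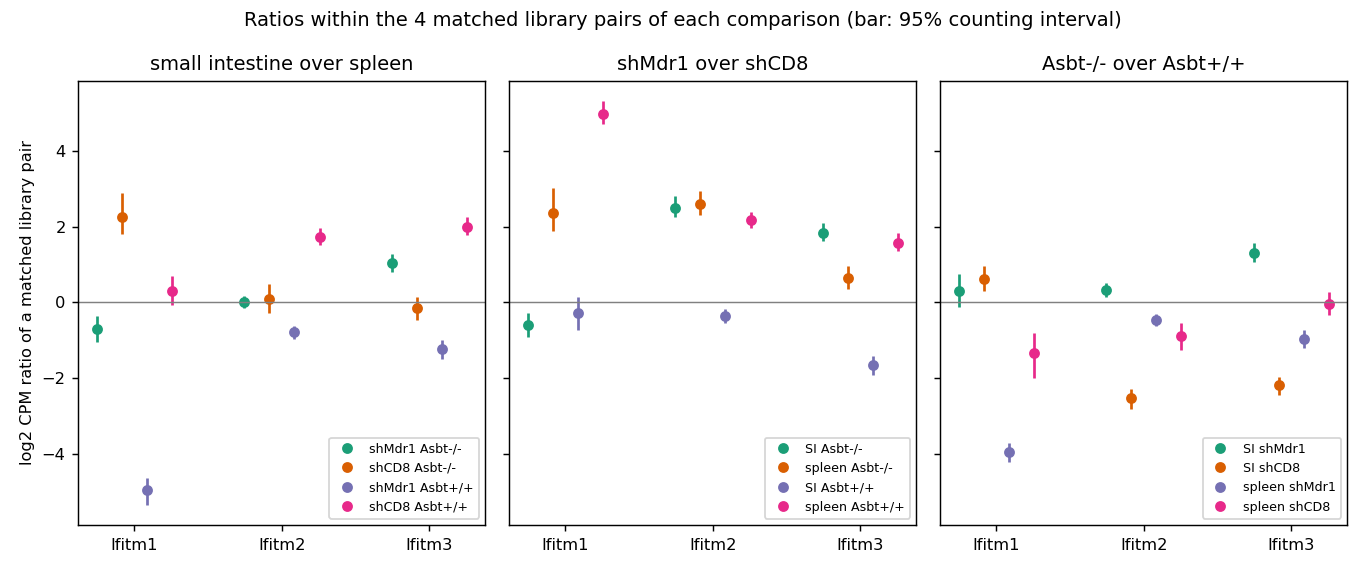
Log2 CPM ratio of Ifitm1, Ifitm2 and Ifitm3 within each of the 4 matched library pairs of the tissue, hairpin and host comparisons, with 95% counting intervals as bars; SI stands for small intestine. For Ifitm2, 3 of the 4 hairpin pairs stood between 2.17 and 2.60 and the pair from small intestine of Asbt+/+ hosts at -0.35.

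Markers of other cells stand here beside the IFITM levels, by tissue, hairpin and host. Between hairpins and between hosts none of the tested marker genes passed the edgeR test, nor did any of the 10000 tested genes. Between tissues, 5 of 8 tested neutrophil and 3 of 6 tested erythroid markers passed as lower in small intestine, beside 0.11% of all tested genes. As higher there, 2 of 13 tested macrophage and dendritic cell markers and 1 of 10 tested epithelial markers passed, beside 0.51%. No marker of the other lists passed. The 14 neutrophil markers summed to 14.6 to 201 CPM in small intestine and 861 to 7561 CPM in spleen, with Cxcr2 at 0 in every library. The 7 erythroid markers summed to 38.1 to 104 CPM in small intestine and 1084 to 41346 CPM in spleen. In spleen of Asbt+/+ hosts the neutrophil sum was 7561 CPM with shMdr1 and 6708 CPM with shCD8, where Ifitm1 differed 32.5-fold. The neutrophil sum was carried largely by S100a8 and S100a9, with 25322 and 10696 counts over the 8 libraries, and so does not describe that list as a whole. Retnlg, a neutrophil gene of that list, had 125 CPM in shMdr1 spleen Asbt+/+ and 4.28 CPM in shCD8 spleen Asbt+/+. Retnlg and Car1, a carbonic anhydrase gene of red cell precursors and colon epithelium, were the other 2 genes at least 4-fold above every other library there. Car1 had 98.6 CPM in that library and at most 7.15 CPM elsewhere. The 17 macrophage and dendritic cell markers summed to 630 to 1281 CPM in small intestine and 190 to 546 CPM in spleen. The 12 stromal and endothelial markers summed to 31.4 to 79.2 CPM in small intestine and 10.4 to 38.6 CPM in spleen, with Lyve1 at 0 throughout. The 15 epithelial markers summed to 54.0 to 620 CPM in small intestine and 0 to 163 CPM in spleen. B cell markers summed to 17.2 to 208 CPM in small intestine and 84.5 to 199 CPM in spleen, with Pax5 at 0. NK and innate lymphoid markers summed to 307 to 387 CPM in small intestine and 298 to 445 CPM in spleen, with Ncr1 at 0. Over the 8 libraries Igkc and Ighm, with 1326 and 1003 counts, carried most of the B cell sum. Il7r (4481 counts) carried most of the NK and innate lymphoid sum, and Pecam1 (366 counts) most of the stromal and endothelial sum. None of these sums describes its list as a whole. Cd8a and Cd8b1 summed to 0 to 95.8 CPM in small intestine and 0.613 to 12.8 CPM in spleen. Between hairpins the 8 tested neutrophil markers all had fitted log2 fold changes above 0, with a median of 0.95, beside a median of 0.09 over all tested genes. The 6 tested erythroid markers had a median of 1.30 with 5 above 0, and the 3 tested B cell markers a median of -0.81 with 0 above 0. Medians of the other lists with more than 1 tested gene lay from -0.22 to 0.32. The neutrophil sum was lower with shMdr1 (14.6 CPM) than with shCD8 (48.8 CPM) in small intestine of Asbt-/- hosts, where Ifitm2 was higher with shMdr1. Between hosts the 8 neutrophil markers had a median of -1.71 with 1 above 0, and the 10 tested epithelial markers a median of -4.41 with 0 above 0, beside a median of 0.11 over all tested genes. The epithelial sum was 0 to 62.7 CPM in Asbt-/- hosts and 51.3 to 620 CPM in Asbt+/+ hosts. The part of any of these cells in the IFITM levels was not tested, and in bulk libraries fewer cells of a type and less RNA per cell cannot be told apart.

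**Figure D4:**
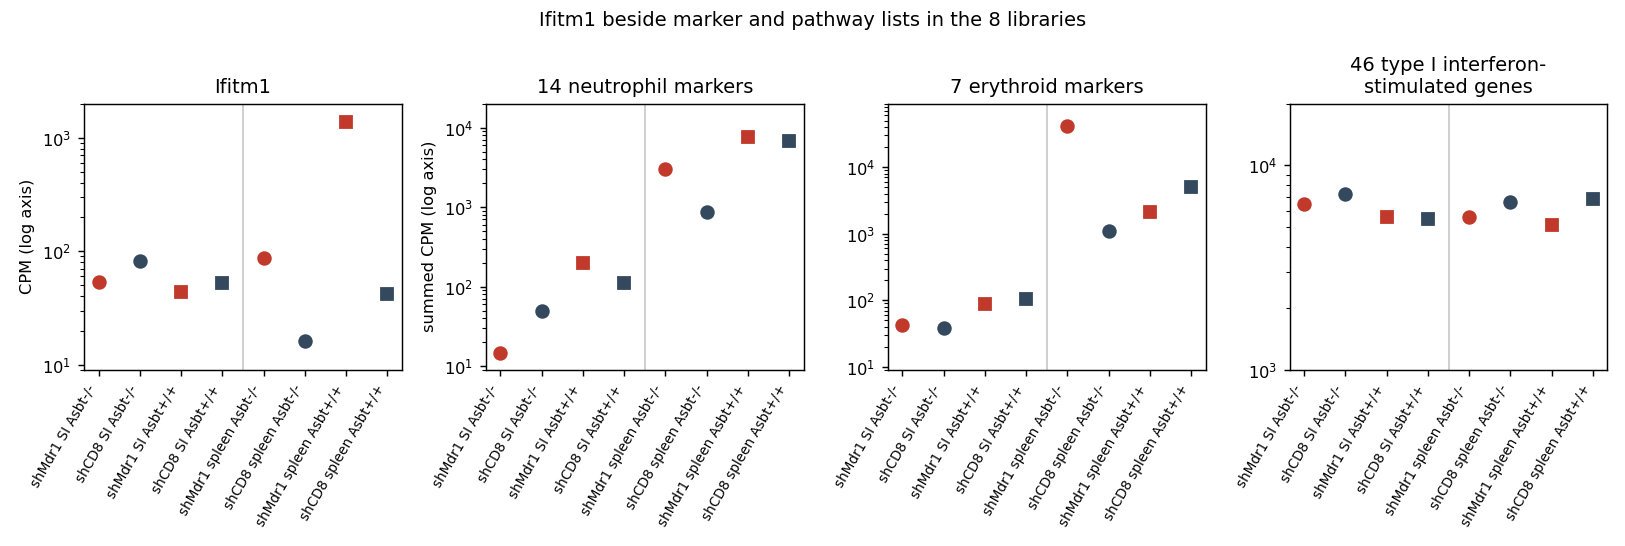
CPM of Ifitm1 and summed CPM of 14 neutrophil markers, 7 erythroid markers and 46 type I interferon-stimulated genes in the 8 libraries (log axes with different ranges); colours and shapes are red for shMdr1, dark blue for shCD8, circles for Asbt-/- and squares for Asbt+/+. In spleen of Asbt+/+ hosts the neutrophil sum was 7561 CPM with shMdr1 and 6708 CPM with shCD8, where Ifitm1 stood at 1376 CPM with shMdr1 and 42.4 CPM with shCD8. S100a8 and S100a9 carried most of the neutrophil sum, with 25322 and 10696 counts over the 8 libraries.

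Of the other Ifitm genes, Ifitm6, a myeloid-expressed relative next to Ifitm3, was the best detected. In Asbt-/- hosts its counts were 95 for shMdr1 and 10 for shCD8 in small intestine, and 66 for shMdr1 and 15 for shCD8 in spleen. In Asbt+/+ hosts its counts were 0 for shMdr1 and 69 for shCD8 in small intestine, and 86 for shMdr1 and 102 for shCD8 in spleen. Its 95 counts in shMdr1 small intestine Asbt-/- came from the library with the lowest neutrophil sum, 14.6 CPM. Macrophage and dendritic cell markers summed to 781 CPM in that library, above every spleen library. The same markers summed to 1281 CPM in shCD8 small intestine Asbt-/-, where Ifitm6 had 10 counts. In small intestine of Asbt+/+ hosts they summed to 1025 CPM with shCD8 (69 counts) and 630 CPM with shMdr1 (0 counts). Which cells the Ifitm6 counts came from was not tested. The small intestine libraries held 1 count of Ifitm10 and the spleen libraries 40. The ratio of these pooled counts, scaled to library size, was 0.0231. Its 95% counting interval was 0.000572 to 0.137, which leaves out the spread between libraries. Neither gene passed the edgeR test in any comparison (adjusted p = 0.392 for Ifitm10 between tissues, and 0.900 to 0.999 for the rest). Ifitm7 had 11 counts in all and Ifitm5, the bone-specific member, 4 in shMdr1 spleen Asbt-/-.

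The genes beside the cluster did not share the Ifitm1 peak. Of the 5 protein-coding genes on each side in the GRCm38.p6 RefSeq order, Psmd13, a proteasome subunit gene, had 18.2 CPM in shMdr1 spleen Asbt+/+ and a median of 20.9 CPM in the other 7 libraries. Pkp3, a desmosomal plakophilin gene, had 111 CPM there and a median of 98.6 CPM elsewhere, and Sigirr, a negative regulator of interleukin 1 receptors, 43.1 CPM and 41.6 CPM. The highest ratio was 1.73, for Pgghg (Athl1 in the table), against 26.2 for Ifitm1 and 1.73, 2.36 and 1.32 for Ifitm2, Ifitm3 and Ifitm6. B4galnt4 and Ptdss2 were at 0.540 and 0.403 of the median, and Sirt3, Cox8b, Nlrp6 and Ano9 had 0 to 13 counts in all.

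Likeness of pattern was measured as the SD, over the 8 libraries, of the log2 CPM difference between a gene and a member, among 6982 other genes with a mean of at least 10 CPM. The closest to Ifitm1 were Herc6, itself an interferon-stimulated gene (SD 1.29), Tk1, a thymidine kinase gene (1.30), and Ska2, a kinetochore gene (1.39), so no gene tracked it closely. The closest to Ifitm2 were Ccdc191 (0.48), Mrpl50, a mitochondrial ribosomal protein gene (0.53), and Mecr, an enzyme gene of mitochondrial fatty acid synthesis (0.65). The closest to Ifitm3 were Rbm19 (0.31), Mrpl50 (0.36) and Srd5a3, a gene of dolichol synthesis (0.37). Between the members themselves the SD was 0.72 for Ifitm2 and Ifitm3, 1.57 for Ifitm1 and Ifitm2 and 1.67 for Ifitm1 and Ifitm3. With a prior count of 10, 1 of the 3 genes closest to Ifitm1 kept its place.

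The interferon pathway was read from 8 lists of 102 tested genes, other CD225 genes and IFITM partners included, and 1 of them passed the edgeR test in the tissue comparison, 0 in the hairpin comparison and 0 in the host comparison. Over all tested genes 0.62% passed between tissues (0.51% higher and 0.11% lower in small intestine), 0% between hairpins and 0% between hosts. Between hairpins 299 genes had an unadjusted edgeR p under 0.05 and DESeq2 called 3, and between hosts 271 had such a p and DESeq2 called 6. As shares of the 10000 tested genes, 299 and 271 lie below the 0.05 that this threshold gives on average when no gene differs. The gene that passed was Cxcl9, a chemokine gene induced by interferon gamma, whose small intestine libraries held 383 counts and spleen libraries 2. The ratio of these pooled counts, scaled to library size, was 177. Its 95% counting interval was 48.7 to 1468, which leaves out the spread between libraries. Cxcl9 was higher in 4 of 4 pairs (edgeR adjusted p = 0.00969). Without shMdr1 small intestine Asbt+/+, shMdr1 spleen Asbt+/+ or shCD8 spleen Asbt-/- its edgeR adjusted p was 0.0803, 0.0607 and 0.0655, in that order. Of the 21 interferon ligand genes, 3 had counts: Ifng had 10206 in all, Ifnz 4 and Ifna1 2. Ifng averaged 762 CPM in small intestine and 385 CPM in spleen, a log2 fold change of 0.99 ± 0.40 (SE), higher in 4 of 4 pairs (edgeR adjusted p = 0.534). Its value was 0.11 ± 0.42 between hairpins and -0.01 ± 0.42 between hosts.

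Among the receptors, none of 5 tested genes passed in any comparison. Ifngr1, the ligand-binding chain for interferon gamma, had the smallest p between tissues (0.97 ± 0.23, edgeR adjusted p = 0.135), beside Ifngr2 (2.55 ± 2.05) and Ifnar2 (-0.72 ± 0.65). Between hairpins Ifngr2 had 1 pooled count with shMdr1 and 84 with shCD8, with 0 counts in 4 libraries. The ratio was 0.0139, with a counting interval of 0.000347 to 0.0795 that leaves out the spread between libraries. Ifnar1 and Ifngr1 stood at -0.63 ± 0.56 and -0.19 ± 0.23 between hairpins. The edgeR adjusted p was 0.999 for each of these receptors. Between hosts Ifngr2, Ifngr1 and Ifnar2 stood at -2.06 ± 1.71, -0.21 ± 0.23 and 0.58 ± 0.66. Ifnlr1, the interferon lambda receptor, had 0 counts.

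None of the 9 signalling kinases and factors, 7 tested inhibitors or 38 tested type I interferon-stimulated genes passed. At an unadjusted edgeR p under 0.05, the type I list had 2 higher and 2 lower genes between tissues, 1 higher and 2 lower between hairpins and 0 between hosts. Over all 10000 tested genes that threshold was met by 845 between tissues, 299 between hairpins and 271 between hosts. DESeq2 called 0 genes of the 8 lists between hairpins and 0 between hosts. Between tissues the smallest p in these lists belonged to Jak2 (0.90 ± 0.30), Irf1 (-0.39 ± 0.23) and Irf9 (-0.66 ± 0.48), to Socs3 (-1.41 ± 0.64), Ptpn6 (-1.32 ± 0.75) and Pias1 (-0.62 ± 0.41), and to the antiviral genes Rsad2 (-3.33 ± 1.08), Parp14 (-1.16 ± 0.43) and Ifi27 (0.60 ± 0.23). Between hairpins the genes with the smallest p included Jak2 (-0.73 ± 0.30) and Irf1 (-0.32 ± 0.23), both below 0 in 4 of 4 pairs, Ptpn6 (1.32 ± 0.74), Ptpn2 (-0.41 ± 0.37) and Socs3 (0.58 ± 0.64), and Cmpk2 (-3.66 ± 1.26), Ifi27l2a (-0.70 ± 0.30) and Isg20 (1.37 ± 0.61). Between hosts the smallest p belonged to Tyk2 (0.63 ± 0.43), Irf7 (0.45 ± 0.38) and Irf1 (0.20 ± 0.23), to Pias4 (1.40 ± 1.13), Ptpn6 (0.73 ± 0.71) and Ptpn11 (0.36 ± 0.47), and to Ifi27l2a (0.65 ± 0.31), Samhd1 (0.50 ± 0.25) and Oas3 (2.57 ± 1.40). The type I list had a median log2 fold change of 0.11 between hairpins, with genes from -3.66 to 1.82, beside a median of 0.09 over all tested genes. Between tissues its median was -0.38, beside -0.17 over all tested genes, and between hosts 0.16, beside 0.11. Its summed level of 5112 to 7263 CPM was carried largely by Ifi27l2a, Ly6e and Ly6a, with 37910, 22345 and 22336 counts over the 8 libraries, and so does not describe the list as a whole.

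Of 30 tested interferon gamma-induced genes, Cxcl9 passed between tissues and none passed between hairpins or hosts, with medians of 0.08, -0.06 and 0.06. The smallest p between hairpins belonged to Psme2, a proteasome activator gene (0.92 ± 0.34), Irgm2 (-0.99 ± 0.59) and Cxcl10 (-0.44 ± 0.28), and between hosts to the GTPase genes Gbp9 (1.24 ± 0.57), Irgm1 (-0.85 ± 0.50) and Gbp4 (0.67 ± 0.40). By promoter, 18 of 33 type I genes and 12 of 23 interferon gamma-induced genes with a window held the response element core, beside 3.99% of all genes with a window.

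**Figure D5:**
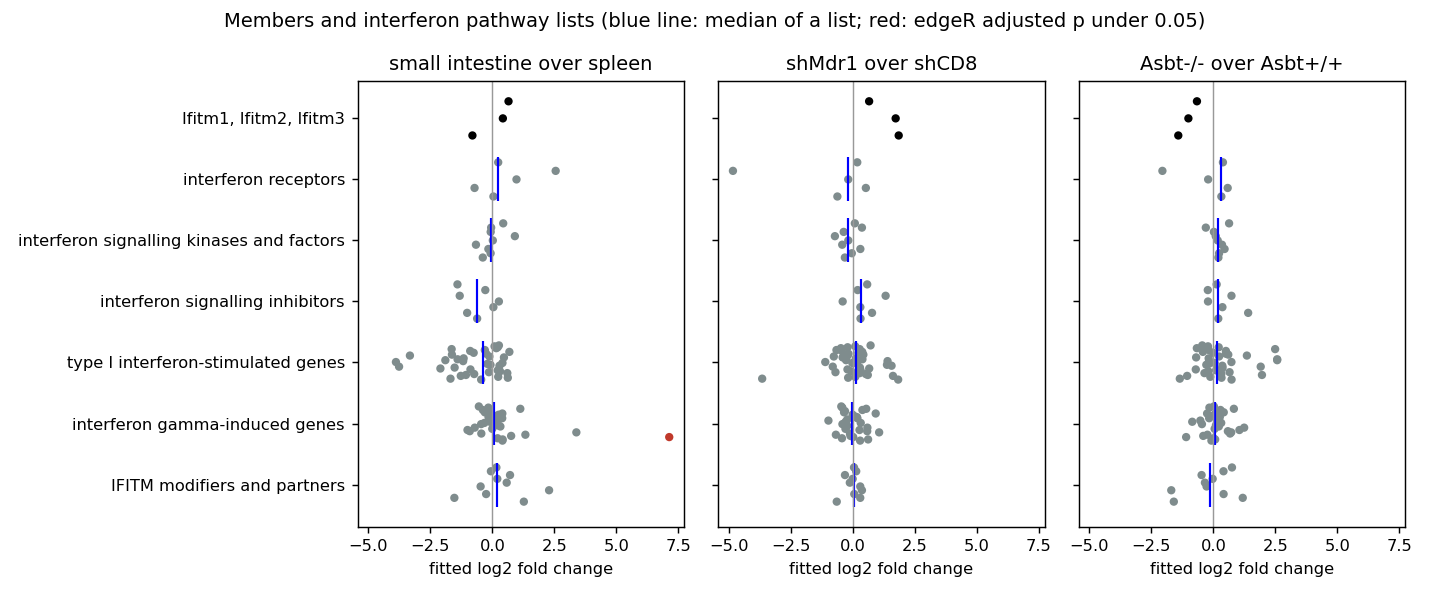
Fitted log2 fold changes of the 3 IFITM genes (black) and of interferon pathway and partner genes (grey, red where edgeR adjusted p was under 0.05) in the 3 comparisons, with each list's median as a blue line. Between hairpins the IFITM genes stood at 0.65 to 1.85 and the type I genes at -3.66 to 1.82 with a median of 0.11.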

How the data were processed

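RNA of sorted CD4+ effector T cells was sequenced, 1 library for each of 8 combinations of tissue, hairpin and host. The labels' protocols name the SMART-Seq v4 and NEBNext kits. The deposited table holds raw read counts per gene; TopHat, HTSeq, DESeq2 and build mm9 are listed per the submitters' processing notes, which give no version, annotation, strand or multi-mapping setting. From it, filterByExpr kept 10000 genes, TMM factors scaled the libraries, and the edgeR quasi-likelihood test (edgeR 4.0.16, R 4.3.3) was fitted to an additive model of tissue, hairpin and host with 4 residual degrees of freedom. Benjamini-Hochberg adjustment ran over all tested genes at 0.05. The fit was also run on simulated counts with tissue effects only, no interactions and the same dispersion for every gene. That run does not check the fit under the spread of these libraries. CPM use TMM-scaled library sizes of 1565220 to 2548192 counts, and pair ratios are of log2 CPM with a prior count of 2. The SE after ± is the log2 fold change over the square root of F. P-values reflect only how these libraries vary, possibly for technical reasons, and the residual holds interactions. Members, lists and the rule for named genes were chosen with earlier results of these data known. Named were the members, other Ifitm genes, Ifng and interferon receptors, the 3 genes most like each member, the cluster's neighbours, and from each pathway list the passing genes or, with none, the 3 with the smallest p, of which some are not reported here; Retnlg and Car1 were singled out after values were seen. Alternatives were other size factors, no filter, DESeq2 1.42.0, a block for matched pairs, library sizes without mitochondrial, hemoglobin and Rn18s-rs5 counts, other prior counts, and leaving out libraries.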

Additional observations from a re-analysis of the deposited data

Results flagged for a closer look

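Within the 4 libraries of a level, the gap of the farthest library to its nearest neighbour, over the level's range, was above Dixon's 95% critical value in 5 of 18 sets of values, which share libraries. The genes were chosen by these same levels, so this only describes which libraries lay apart and is no test, and the usual chance rate of about 1 in 20 does not apply. The Ifitm1 level of 1376 CPM in shMdr1 spleen Asbt+/+ lay apart among the 4 spleen, the 4 shMdr1 and the 4 Asbt+/+ libraries. The levels of 305 CPM for Ifitm2 and 327 CPM for Ifitm3 in shCD8 small intestine Asbt+/+ lay apart among the 4 shCD8 libraries.

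The Ifitm1 ratio of shMdr1 over shCD8 was below 0 in both small intestine pairs and above 0 in both spleen pairs, and the mean log2 ratio of small intestine minus that of spleen was -4.11. The same 4 values make the ratio of small intestine over spleen lower in shMdr1 than in shCD8 cells, by -4.11. The Ifitm1 ratio of Asbt-/- over Asbt+/+ hosts was above 0 in both small intestine pairs and below 0 in both spleen pairs, a mean difference of 3.11. These differences were not tested, and each holds the shMdr1 spleen Asbt+/+ library.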

How the results depend on the processing

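With 1 library per combination the precision rests on 8 libraries, and counting error limits genes with few counts, such as Ifitm10. The labels give no replicate numbers. Of the fitted IFITM values, the ranges over the 8 fits that left out 1 library were, between tissues, -2.25 to 0.56 for Ifitm1, -0.30 to 0.76 for Ifitm2 and -0.12 to 1.00 for Ifitm3. Between hairpins they were 0.31 to 2.95, 1.47 to 2.32 and 0.26 to 1.28, and between hosts -2.61 to 0.32, -1.39 to -0.32 and -1.05 to 0.09. The count of genes that passed, 62 between tissues, became 11 to 137 when 1 library was left out, 165 with no filter, 257 with DESeq2 and 39 in a fit chosen after seeing the data that left out the 2 libraries from small intestine of Asbt+/+ hosts. Between hairpins the count of 0 became 9 with no filter and 3 with DESeq2. Between hosts the count of 0 became 14 with no filter, 6 with DESeq2 and 0 to 4 with 1 library left out. The 1 pathway gene that passed between tissues became 3 with DESeq2, 0 to 1 with 1 library left out and 0 without that pair. The cause was not tested. Other size factors, the library sizes without mitochondrial, hemoglobin and Rn18s-rs5 counts and the block for matched pairs kept the sign of all 9 IFITM values.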

Other observations

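Genes whose products are known to modify or bind IFITM proteins were read as a list of 10, and none passed the edgeR test in a comparison. Between tissues the smallest p belonged to Nedd4, a ubiquitin ligase of IFITM3 (2.28 ± 0.96, SE), Zdhhc2, a palmitoyltransferase gene (0.71 ± 0.32), and Vapa, a membrane contact protein gene (0.58 ± 0.27), each above 0 in 4 of 4 pairs (edgeR adjusted p = 0.548, 0.591 and 0.615). Between hairpins they belonged to Zdhhc2 (-0.32 ± 0.32), Cd81 (-0.65 ± 1.10) and Setd7, a methyltransferase gene (0.30 ± 0.53), with edgeR adjusted p = 0.999 for each. Between hosts they belonged to Nedd4 (-1.70 ± 0.99), Zdhhc20, a palmitoyltransferase gene (0.41 ± 0.25), and Zdhhc2 (-0.48 ± 0.32), with edgeR adjusted p = 0.996 for each. The list's summed level was 591 to 880 CPM in small intestine and 597 to 721 CPM in spleen. The summed level of the 3 IFITM genes was 204 to 684 CPM in small intestine and 144 to 2033 CPM in spleen.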
